A study of Mus musculus with 2 samples.

Results

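DNA replication and S-phase genes were compared between sorted heart cells of a Tbx20 control and a Tbx20 mutant genotype. The set holds 34 genes chosen by symbol, of the 18193 genes on the array that are named by at least 1 probe set of a single gene. The cells came from mouse hearts at embryonic day 12.5 and belong to the Tie2Cre lineage, in which a Cre transgene driven from the Tie2 gene marks endothelium, endocardium and the cells derived from them. The control genotype was Tie2Cre;Tbx20 +/loxP, with 1 floxed and 1 wild-type allele of the T-box transcription factor gene Tbx20. The control carried Tie2Cre as well, so its floxed allele was also exposed to Cre in this lineage. Where Cre acted, the control thus kept only its wild-type allele. The mutant genotype was Tie2Cre;Tbx20 loxP/-, with 1 floxed allele and 1 null allele, so that the null allele was present in every cell of the embryo and only the floxed allele depended on Cre. Live cells that did not stain for the blood antigens CD41, CD45 or Ter119 were collected by flow cytometry, and their RNA was hybridised to Affymetrix arrays. There was 1 array per genotype, and the labels do not state how many embryos contributed to each. No difference below therefore has a replicate check, no test between genotypes was made, and every ratio compares these 2 preparations.

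Before a cell divides it copies its genome in S phase. Replication origins are loaded in G1 by the origin recognition complex, Cdc6 and Cdt1, which place the MCM ring, the core of the replicative helicase, on the DNA. At the transition from G1 to S, cyclin E with its kinase and the E2F transcription factors promote the firing of origins and the transcription of many of the genes described here. DNA polymerase alpha and primase then start new strands, the clamp loader places the sliding clamp PCNA, and flap endonuclease and ligase join the fragments of the lagging strand. In the heart of this stage, endocardium, cushion mesenchyme and coronary vessels are all growing, and the sorted lineage holds dividing cells.

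The promoters of the genes with the highest and lowest ratios, and those of the MCM ring subunits, are shown because E2F sites near the start of transcription are a known feature of replication genes. Sequences are from RefSeq on GRCm38.p6, cover 200 bases before to 30 bases after the annotated start, and run 5′ to 3′ on the strand of the gene. Capitals mark matches, on either strand, to any of 6 spellings of the E2F motif, TTTGGCGC, TTTCGCGC, TTTCCCGC, TTTGGCGG, TTTCCCGG or TTTGCCGC.
Mcm10, chr2:5012762-5012991, minus strand: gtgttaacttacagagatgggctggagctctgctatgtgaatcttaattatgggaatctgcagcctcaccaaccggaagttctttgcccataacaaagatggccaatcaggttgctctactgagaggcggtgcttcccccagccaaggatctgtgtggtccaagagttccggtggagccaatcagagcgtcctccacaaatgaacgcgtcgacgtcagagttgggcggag
Ccne1, chr7:38107461-38107690, minus strand: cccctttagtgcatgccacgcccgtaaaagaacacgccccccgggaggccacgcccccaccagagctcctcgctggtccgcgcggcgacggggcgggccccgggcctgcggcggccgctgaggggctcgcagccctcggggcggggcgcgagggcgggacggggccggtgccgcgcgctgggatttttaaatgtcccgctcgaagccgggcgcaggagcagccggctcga
Chaf1b, chr16:93883701-93883930, plus strand: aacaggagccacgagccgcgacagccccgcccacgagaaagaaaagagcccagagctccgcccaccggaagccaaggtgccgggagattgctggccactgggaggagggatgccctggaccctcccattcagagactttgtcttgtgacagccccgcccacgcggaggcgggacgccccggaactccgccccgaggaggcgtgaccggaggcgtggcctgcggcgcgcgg
Rfc3, chr5:151651179-151651408, minus strand: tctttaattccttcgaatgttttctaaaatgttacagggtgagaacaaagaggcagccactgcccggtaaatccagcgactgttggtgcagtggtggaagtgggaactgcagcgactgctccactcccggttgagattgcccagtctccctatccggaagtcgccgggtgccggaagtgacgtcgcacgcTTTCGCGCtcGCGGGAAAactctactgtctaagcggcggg
Rpa2, chr4:132768160-132768389, plus strand: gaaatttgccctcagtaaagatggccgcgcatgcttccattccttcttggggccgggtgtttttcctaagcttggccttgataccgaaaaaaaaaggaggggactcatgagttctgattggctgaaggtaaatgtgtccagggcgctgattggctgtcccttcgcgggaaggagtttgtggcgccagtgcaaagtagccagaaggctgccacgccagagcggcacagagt
Mcm6, chr1:128359676-128359905, minus strand: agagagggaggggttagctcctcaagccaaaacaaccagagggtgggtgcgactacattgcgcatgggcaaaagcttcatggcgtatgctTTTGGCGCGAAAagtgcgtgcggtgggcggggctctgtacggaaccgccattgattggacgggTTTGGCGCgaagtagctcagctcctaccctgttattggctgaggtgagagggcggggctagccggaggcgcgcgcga
Mcm5, chr8:75109309-75109538, plus strand: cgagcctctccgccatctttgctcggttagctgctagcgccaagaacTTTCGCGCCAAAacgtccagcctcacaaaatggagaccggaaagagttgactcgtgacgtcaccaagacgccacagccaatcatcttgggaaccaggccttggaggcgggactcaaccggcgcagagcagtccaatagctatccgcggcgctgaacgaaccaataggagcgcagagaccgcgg
Mcm2, chr6:88898751-88898980, minus strand: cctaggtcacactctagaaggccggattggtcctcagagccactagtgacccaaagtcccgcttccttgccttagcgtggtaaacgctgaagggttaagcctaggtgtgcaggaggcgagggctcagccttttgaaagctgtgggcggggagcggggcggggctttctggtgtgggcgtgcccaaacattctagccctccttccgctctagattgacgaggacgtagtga
Mcm3, chr1:20820283-20820512, minus strand: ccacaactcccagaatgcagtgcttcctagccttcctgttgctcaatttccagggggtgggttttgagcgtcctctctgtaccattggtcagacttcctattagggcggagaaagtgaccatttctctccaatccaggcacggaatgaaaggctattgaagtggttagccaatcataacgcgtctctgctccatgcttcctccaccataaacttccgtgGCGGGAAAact
Mcm7, chr5:138171854-138172083, minus strand: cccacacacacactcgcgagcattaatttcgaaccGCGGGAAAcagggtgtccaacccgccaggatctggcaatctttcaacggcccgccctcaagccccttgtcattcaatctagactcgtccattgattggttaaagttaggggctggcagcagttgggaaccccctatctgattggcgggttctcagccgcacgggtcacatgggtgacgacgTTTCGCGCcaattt

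In these windows Mcm6 holds 3 matches, of which the first 2 overlap, Mcm5 holds 2 overlapping matches, and Rfc3 and Mcm7 hold 2 separate ones. Mcm3 holds 1 match in the printed window and another 39 bases into the transcript. The printed windows of Mcm10, Ccne1, Chaf1b, Rpa2 and Mcm2 hold none of these spellings. Over the full table of 250 bases before to 50 bases after the start, 30 of the 34 genes had an entry. A match was present in 12 of these 30 genes (40.0%), against 8.32% of 8682 measured genes and 4.55% of all 27025 genes in the table. Besides those printed, the matching genes were Orc1, Cdc6, Cdt1, Pola1, Lig1, Chaf1a and Uhrf1. Genes with several annotated starts, such as Lig1 with 3, counted where any start had a match. Lig1 and Uhrf1 matched only at their second start. The windows printed above show the first listed start of each gene. No entry was found for Mcm4, Gins1, Gins2 and Ccne2. The CCAAT box was present in 19 of the 30 genes (63.3%) against 43.2% of measured genes, and the CHR element, spelled TTTGAA or TTCGAA, in 5 (16.7%) against 16.0%. A match is a description of the letters, not of a bound site.

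As a group, the replication genes read slightly higher in the mutant array. Of the 34 genes, 33 had a single-gene probe set and all of these were above the detection floor on both arrays. The floor is the median signal of each array, 91.3 in the control and 82.4 in the mutant. The exception was Chaf1a, which encodes the large subunit of the histone chaperone CAF-1 and was matched by no such probe set. Of the 33 measured genes 26 were higher and 7 lower in the mutant. Of all 10665 measured genes, 49.0% were higher and 51.0% lower. On the log2 scale, the mutant over control ratio had a median of 0.17 (SD 0.27 over 33 genes), against -0.01 (SD 0.38) over all measured genes. The middle part of the set, from percentile 25 to percentile 75, ran from 0.01 to 0.27, and that of all measured genes from -0.23 to 0.21. A log2 ratio over 0.2 was read for 13 of the 33, against 25.9% of all measured genes, and a ratio under -0.2 for 3, against 28.1%.

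Single genes differed little. At least 1.5-fold higher were 3 of the 33, Mcm10, Ccne1 and Chaf1b, where 4.37% of measured genes were at least 1.5-fold higher. None of the 33 was at least 1.5-fold lower, against 6.61% of measured genes, and none was at least 2-fold changed in either direction, against 2.11%. Probe sets that read 1 gene in 1 RNA sample can still disagree, which gives a scale for probe error but not for the spread between embryos. Its SD was 0.31 on the log2 scale for genes with a mean signal over 1000, which held 23 of the 33, 0.38 for signals of 200 to 1000, which held 9, and 0.50 below 200, which held Orc1. The ratio exceeded the SD of its class for 7 of the 33 upward and for 0 downward, against 13.0% and 15.3% of all measured genes. In a bulk preparation, more cells in S phase and more RNA of these genes per cell cannot be told apart.

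**Figure D1:**
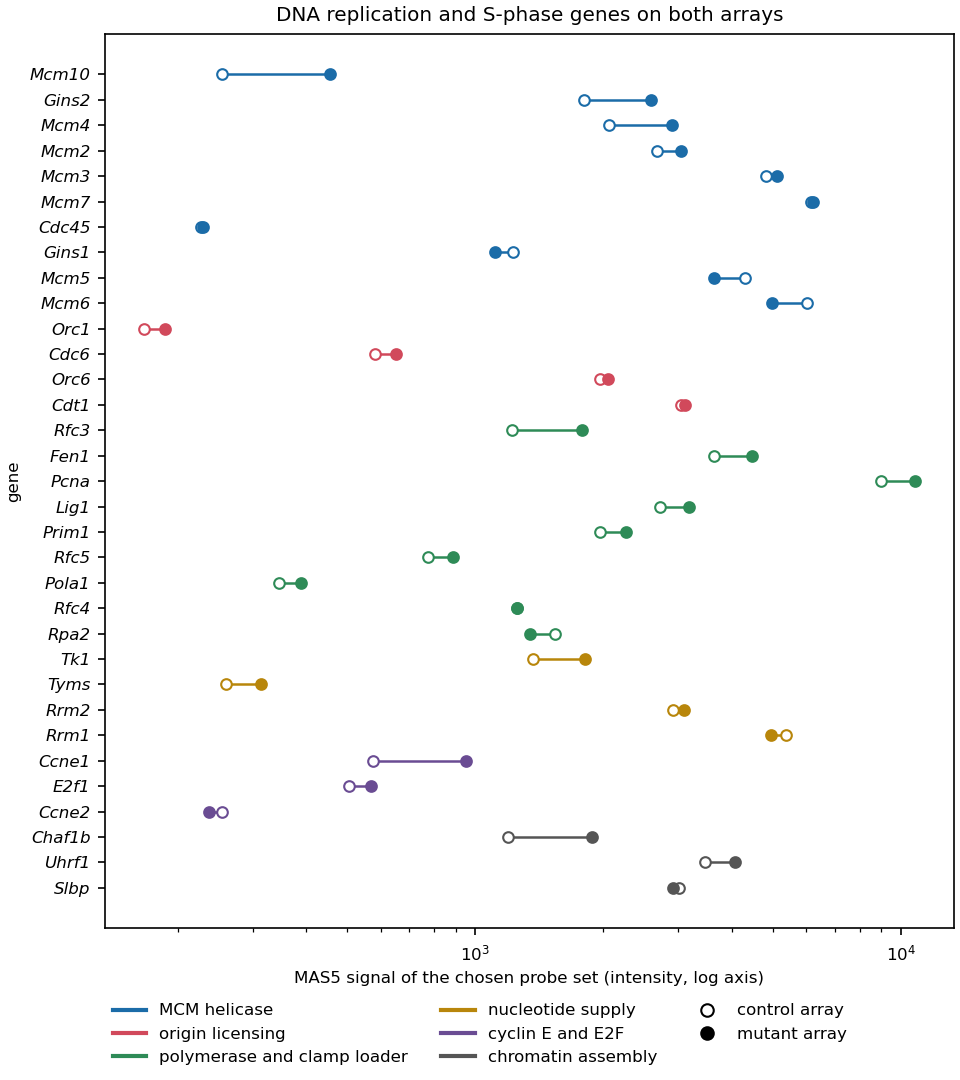
MAS5 signal of the chosen probe set of each of 33 genes on the control array (open circles) and the mutant array (filled circles), on a log axis, coloured by subgroup and sorted within it by ratio; there is 1 array per genotype and so no error bar. In 26 of the 33 genes the filled circle lies to the right, with the widest gaps at Mcm10, Ccne1 and Chaf1b, and in 7 to the left.

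The helicase genes were split. The MCM ring is built of Mcm2 to Mcm7, and it becomes active when Cdc45 and the GINS complex, of which Gins1 and Gins2 are subunits, join it with the help of Mcm10. Of these 10 genes 7 were higher and 3 lower, with a median log2 ratio of 0.05. Mcm2 read 2671 on the control and 3040 on the mutant array, a log2 ratio of 0.19. Mcm4 read 2066 and 2902 in the chosen probe set, a log2 ratio of 0.49, the highest of the ring subunits. Its second probe set read 2297 and 2432 (0.08), so the size of the Mcm4 ratio depends on the probe set. Mcm3, at 4831 and 5125, and Mcm7, at 6151 and 6224, differed by 0.09 and 0.02 on the log2 scale. Mcm5 and Mcm6 were the lowest of all 33 genes. Mcm5 read 4313 on the control and 3643 on the mutant array, a log2 ratio of -0.24. Mcm6 read 6016 and 4971, a log2 ratio of -0.28. Summed over the chosen probe sets of the 6 ring subunits, the signal was 26048 on the control array and 25904 on the mutant array, 99.5% of control. This sum depends on the choice of probe sets, because it holds the lower values of Mcm5 and Mcm6, whose other measured probe sets were higher.

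Mcm5 and Mcm6 each have a second measured probe set that went the other way. The second probe set of Mcm5 read 1604 and 1761 (0.13) and that of Mcm6 read 3061 and 3533 (0.21). The chosen, brighter probe sets of both genes carry the suffix that Affymetrix gives to sets whose probes may also bind other transcripts. Over all 1196 measured single-gene probe sets with this suffix the median log2 ratio was -0.10, against 0.00 for the 13533 unsuffixed ones. Among the 33 genes, 8 measured probe sets carried it, and 6 of these were higher. Read from their unsuffixed probe sets, both genes were thus higher, and the median of the helicase genes with such probe sets only was 0.19. All 5 probe sets of Mcm3 were higher, from 0.09 to 0.46, and all 4 of Mcm7, from 0.00 to 0.31.

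Mcm10, which links the helicase to polymerase alpha, had the highest ratio of the 33 genes, and that ratio rests on 1 of its 3 probe sets. The chosen probe set read 254 on the control and 457 on the mutant array, a log2 ratio of 0.84, rank 138 of 10665. Its other probe sets read 312 and 320 (0.03) and 276 and 286 (0.05). The chosen probe set thus gave the lowest of the 3 signals in the control and the highest in the mutant. Gins2 read 1799 and 2590, a log2 ratio of 0.53, while its second probe set read 1311 and 1367 (0.06). Gins1 read 1227 and 1115 (-0.14). Cdc45 read 227 and 229 (0.01), and its second probe set, at 133 and 108, was at -0.30. In the chosen probe sets the activating factors were thus not shifted alike. For Mcm10 and Gins2 the size of the ratio depends on the probe set, and their other probe sets, at 0.03 to 0.06, did not share the larger ratios.

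The 4 licensing genes were all higher, by small amounts, with a median log2 ratio of 0.11. Orc1, the largest subunit of the origin recognition complex, read 167 on the control and 187 on the mutant array, a log2 ratio of 0.16. Orc6, the smallest subunit, read 1962 and 2047 (0.06). Cdc6, the ATPase that helps to load the MCM ring, read 581 and 650 (0.16). Cdt1, the loading factor that is destroyed once S phase begins, read 3039 and 3116 (0.04), and its second measured probe set, at 847 and 1060, was at 0.32. Each of the 4 ratios of the chosen probe sets lay within the SD between probe sets of its signal class.

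Of the polymerase, clamp and clamp loader genes 8 of 9 were higher, with a median log2 ratio of 0.20. The catalytic subunit of polymerase alpha, Pola1, read 345 on the control and 389 on the mutant array, a log2 ratio of 0.17. Prim1, the catalytic subunit of primase, read 1964 and 2259 (0.20), but its second probe set read 1482 and 1408 (-0.07). Pcna, the sliding clamp that holds polymerases on the DNA, read 8957 and 10800, a log2 ratio of 0.27, from a single probe set. Among the 3 clamp loader subunits, Rfc3 read 1221 and 1784, a log2 ratio of 0.55, and its second probe set was at 0.12. Rfc4 read 1251 and 1255, a ratio of 0.00, and its second probe set read 629 and 861 (0.45). Rfc5 read 775 and 888 (0.20). All measured probe sets of the clamp loader members were higher, but within Rfc3 and within Rfc4 they disagreed by about as much as the ratios themselves.

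The genes that join Okazaki fragments, Fen1 and Lig1, were higher in each of their probe sets. Fen1, the nuclease that trims the flaps of Okazaki fragments, read 3635 and 4458, a log2 ratio of 0.29, and its second probe set read 365 and 465 (0.35). Lig1, the ligase that seals the fragments, read 2719 and 3177 (0.22). Rpa2, a subunit of the protein that coats single-stranded DNA, was the only gene of the 9 that was lower. It read 1542 on the control and 1342 on the mutant array, a log2 ratio of -0.20, and its second probe set went the other way, at 832 and 1024 (0.30).

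Of the nucleotide supply genes 3 of 4 were higher, with a median log2 ratio of 0.18. Tk1, the thymidine kinase of the salvage pathway, read 1367 on the control and 1813 on the mutant array, a log2 ratio of 0.41. Tyms, which makes thymidylate, read 259 and 313 (0.27), with 3 further probe sets under the floor on at least 1 array. Rrm2, the S-phase subunit of ribonucleotide reductase, read 2918 and 3101 in the chosen probe set (0.09). Its 2 other probe sets were further apart, at 2488 and 3428 (0.46) and at 1118 and 1798 (0.69). Rrm1, the large subunit of the same enzyme, read 5373 and 4944 (-0.12), while its second measured probe set read 2935 and 3665 (0.32). The lower value of Rrm1 was thus not shared by its other measured probe set.

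Among the 3 cyclin E and E2F genes of the set, only Ccne1 had more than 1 measured probe set with each of them higher. Ccne1, one of the cyclin E genes, read 575 on the control and 954 on the mutant array, a log2 ratio of 0.73, rank 225 of 10665. Its second probe set read 485 and 890 (0.88), so both were more than 1.5-fold higher. Ccne2, the other cyclin E gene, read 254 and 237 (-0.10). E2f1, an activating E2F, read 505 and 570 (0.17), with a second measured probe set at 468 and 366 (-0.36). The subgroup median of 0.17 is the value of E2f1 and turned to -0.091 when the median over each gene's probe sets was used.

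The chromatin genes of S phase were mixed. Chaf1b, the middle subunit of CAF-1, which deposits histones behind the fork, read 1192 on the control and 1881 on the mutant array, a log2 ratio of 0.66 from its 1 measured probe set. Uhrf1, which recruits the maintenance DNA methyltransferase to newly copied DNA, read 3467 and 4087 (0.24), and its second probe set read 1757 and 2478 (0.50). Slbp, the protein that binds the stem-loop of histone mRNAs, read 3012 and 2916 (-0.05). The median of these 3 genes was 0.24.

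The probe sets that were not chosen were mostly higher too. The 33 genes have 74 single-gene probe sets, and 60 of these passed the floor on each array. Of the 60, 50 were higher and 10 lower, with a median log2 ratio of 0.18, against 49.9% higher among all 19273 measured single-gene probe sets. The 27 probe sets that the choice of the brightest left aside had 24 higher and a median of 0.21. Of 20 genes with several measured probe sets, 13 had each of them higher, against 22.6% of all genes with several, and 0 had each of them lower, against 22.5%. The other 7 had probe sets on both sides of 0. Of the 7 genes that were lower in the chosen probe set, 4 had another measured probe set, and in all 4 it was higher. These were Mcm5, Mcm6, Rpa2 and Rrm1, and Gins1, Ccne2 and Slbp had only 1 measured probe set.

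**Figure D2:**
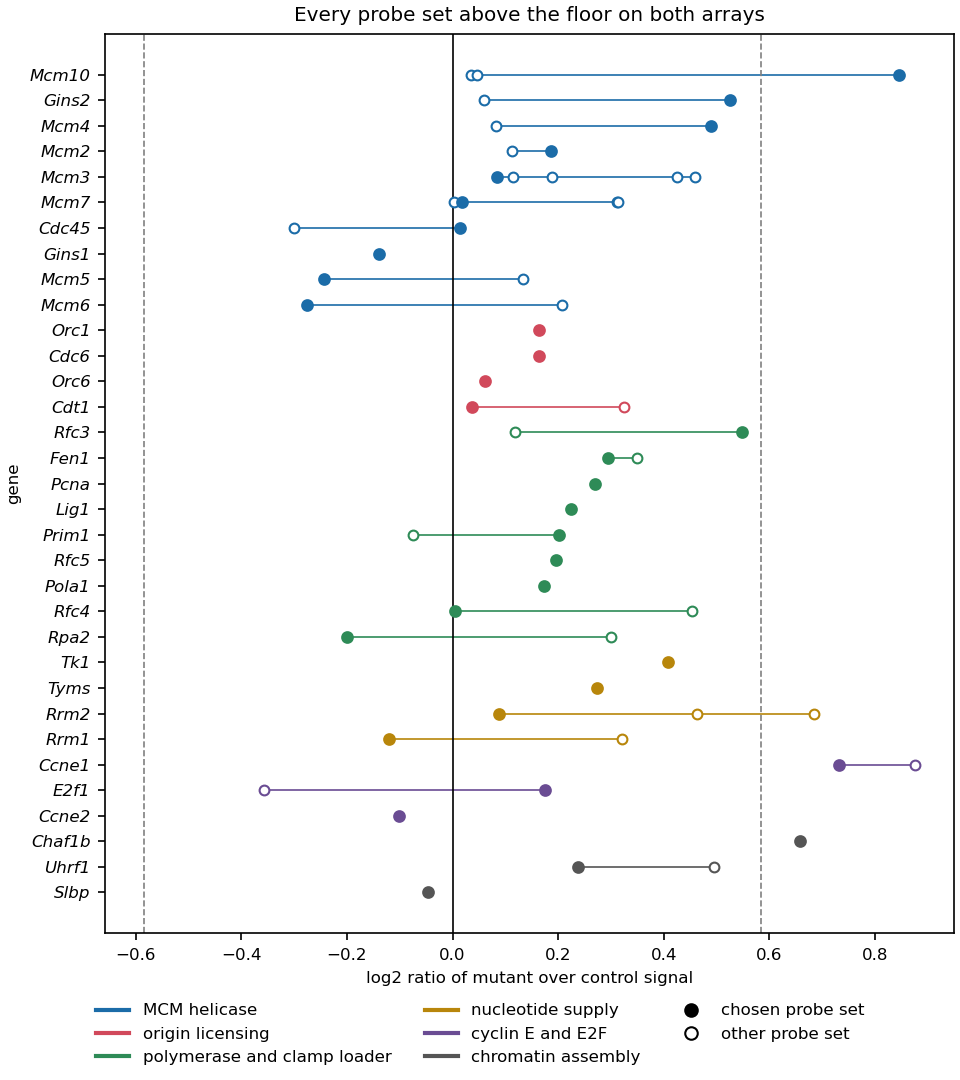
Log2 ratio of mutant over control for each of the 60 probe sets of the 33 genes that were above the floor on both arrays, with the chosen probe set filled, the others open, a line over each gene's range and dashed lines at 1.5-fold. Of the 60, 50 lie to the right of 0, and 5 lie beyond 1.5-fold higher, 2 of them from Ccne1 and 1 each from Mcm10, Chaf1b and Rrm2.

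Genes with and without an E2F match overlapped in their ratios. The 11 measured genes with a match had 9 higher and a median log2 ratio of 0.16, from -0.28 to 0.55. The 18 with an entry and no match had 15 higher and a median of 0.19, from -0.20 to 0.84. Among the promoters printed above, matches were present in Rfc3, at 0.55, and in Mcm6 and Mcm5, at -0.28 and -0.24, and absent from Mcm10, Ccne1 and Chaf1b, at 0.84, 0.73 and 0.66, and from Rpa2, at -0.20. Over all 722 measured genes whose promoter holds a match, 50.7% were higher and the median was 0.00. Genes with a CCAAT box had 13 of 18 higher (median 0.09) and those without had 11 of 11 higher (median 0.22), while 50.4% of all measured genes with the box were higher. Genes with a CHR element had 5 of 5 higher (median 0.19) and those without 19 of 24 (median 0.17), while 48.9% of all measured genes with the element were higher. These are counts over genes of the same 2 arrays.

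Genes of replication and of G1 to S control from lists outside the 34 were also mostly higher, with the G1 to S control genes closest to all measured genes. That list holds activating and repressive E2F genes alike, so its count does not describe a single function. Over 90 listed genes of licensing, fork, nucleotide metabolism, chromatin and G1 to S control, 87 were measured. Of the 87, 64 were higher and 23 lower, with a median log2 ratio of 0.11. Over all measured genes 49.0% were higher and the median was -0.01. The fork genes had 21 of 23 higher and a median of 0.25, the highest of these lists. At the top were Rfc1, the large clamp loader subunit, read at 934 and 1404 (0.59), and Pold2, a subunit of polymerase delta, at 660 and 963 (0.54). The lowest were Prim2, the regulatory primase subunit, at -0.16 and Atad5, which unloads the clamp, at -0.11. The measured probe sets of Rfc1 reached down to -0.12. The other licensing and helicase genes had 11 of 16 higher and a median of 0.10. There Orc2 read 576 and 1168 (1.02), with its lowest probe set at 0.23, and Cdc7, the kinase that triggers origin firing, 491 and 828 (0.76), with another probe set at -0.17. Mcm9 was at -0.55, with its other probe set at 0.075, and Ticrr, which helps to recruit Cdc45, at -0.51, with its other probe set at -0.068.

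The nucleotide metabolism genes outside the set had 9 of 12 higher and a median of 0.14. A higher count in this list is not a measure of nucleotide supply. Highest were Cad, which carries the first enzymes of pyrimidine synthesis, at 0.69 and Samhd1 at 0.52. Lowest were Tk2, the mitochondrial thymidine kinase, at -0.41 and Dtymk at -0.13. The measured probe sets of Cad reached down to 0.11, those of Samhd1 down to 0.21 and those of Dtymk up to 0.49. The replication-coupled chromatin genes had 8 of 11 higher and a median of 0.10, with Cdca7, read at 137 and 262, at 0.93, Hat1, a histone acetyltransferase, at 0.39, Rbbp7 at -0.07 and Rbbp4 at -0.05. The measured probe sets of Rbbp7 reached up to 0.23 and those of Rbbp4 up to 0.39. The G1 to S control genes had 15 of 25 higher and the lowest median of the 5 lists, 0.05. There E2f3, an activating E2F, was at 0.56 with its other probe set at -0.02, and Rb1, read at 99.0 and 146 and so close to the floor in the control, was also at 0.56. At the lower end were E2f8, a repressive E2F, at -0.40, with another probe set at 1.01, and Rbl2, a relative of the retinoblastoma protein, at -0.36, with another probe set at 0.29. Of the 87 genes 6 were at least 1.5-fold higher and 0 at least 1.5-fold lower, against the 4.37% and 6.61% of all measured genes given above.

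Mitotic genes, which act later in the same cycle, had a similar count and median. Of 29 measured genes 22 were higher and 7 lower, with a median log2 ratio of 0.16. The kinase gene Plk1 was at 1.22 and the kinetochore motor gene Cenpe at 1.02, both more than 2-fold in the chosen probe set, whereas no replication gene of the set reached 2-fold. The other Cenpe probe set was at 0.030, and Plk1 has 1 measured probe set. The lowest were Anln, a scaffold of the cleavage furrow, at -0.60 and Incenp at -0.25, with an Incenp probe set at 0.32. CDK inhibitors and growth arrest genes, which hold cells before S phase or in arrest, lay on the other side, with 12 of 13 lower and a median of -0.14. Gadd45b, at 837 and 282 (-1.57), and Cdkn1a, the p21 inhibitor, at 722 and 451 (-0.68), were lowest. The measured probe sets of Gadd45b reached up to -0.79 and had a median of -0.86. Cdkn1b was the 1 higher gene, at 0.02, and Btg2 came next at -0.01, but another probe set of Cdkn1b was at -0.51 and another of Btg2 at -0.94. The difference between these lists and the replication genes has no test with 1 array per genotype.

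**Figure D3:**
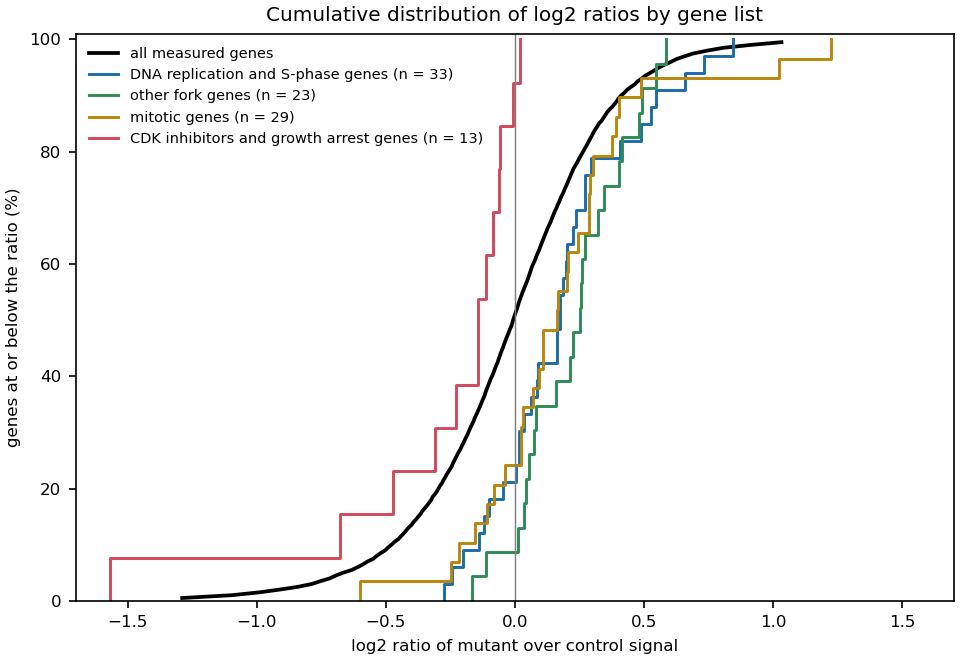
Cumulative share of genes, in percent, at or below each log2 ratio of mutant over control, for all 10665 measured genes (black, from percentile 0.5 to 99.5) and for 4 gene lists with their number of measured genes. The replication, fork and mitotic lists cross 50% at 0.17, 0.25 and 0.16, the CDK inhibitor list at -0.14 and all measured genes at -0.01.

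Other measures also differed between the arrays, and their part in the ratios of the replication genes was not tested. The lineage's own markers were strong on both arrays: all 12 endothelial and endocardial markers were measured, with summed signals of 70150 and 73689 in control and mutant. Cdh5, the junction cadherin of endothelium, read 10886 and 10975, and Emcn 10527 and 11349. All 12 cushion mesenchyme markers were lower, with summed signals of 61553 and 43869, and since Tbx20 is 1 of them, the other 11 summed to 53915 and 37454. Vcan read 11412 and 8078 and Postn 10686 and 6431. Of 12 epicardial markers 10 were measured and all 10 were higher, with summed signals of 5961 and 10090. Tcf21 read 2432 and 3367 and Upk3b 1163 and 2961, while Msln was under the floor on both arrays. Myocardial markers, 11 of 12 measured, summed to 26413 and 29101, with Tnni1 at 7257 and 5654 and Myl7 at 3811 and 6753.

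Smooth muscle and pericyte markers, 11 of 12 measured, summed to 14477 and 12452, with Pdgfrb at 4072 and 3184 and Acta2 at 3286 and 2937. Erythroid and megakaryocytic markers, 6 of 12 measured, summed to 12376 and 8574, mostly from Hbb-y at 9843 and 6606, and the next brightest, Hba-x, read 968 and 495. Of the 6 measured, 4 were lower and 2 higher, the latter being Epor at 517 and 735 and Pf4 at 214 and 295. Among this list, the lineage factor Gata1 was under the floor on both arrays. Of 12 leukocyte markers 1 was measured, Cd68, at 93.8 and 162, and the sums over the list were 747 and 696. Cx3cr1, at 226 and 47.8, and Csf1r, at 144 and 80.6, were under the floor in the mutant only. Mrc1, at 50.2 and 115, and Aif1, at 70.9 and 99.5, were under it in the control only, and Ptprc, which encodes the CD45 antigen removed by the gate, was under the floor on both arrays. The ratio of 3′ to 5′ signal of Gapdh, a measure of RNA integrity, was 2.27 on the control array and 1.64 on the mutant array, and that of Actb 0.989 and 0.998. Tbx20 itself read 7638 and 6416, 6128 and 5262, and 7050 and 4245 in its 3 probe sets. Which exons the floxed allele loses is not given in the labels, so these values do not check the deletion.

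The group's direction was the same under each way of processing tried. The median log2 ratio of the set lay between 0.12 with a pseudocount and 0.19 with unsuffixed probe sets, and that of all measured genes between -0.03 and 0.01. After a loess fit that removed the trend of the ratio with brightness, 25 of 33 were higher and the median was 0.16. The count of genes at least 1.5-fold higher was 3, or 2 with the higher floor and with the median over probe sets, where Mcm10 was at 0.05.

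**Figure D4:**
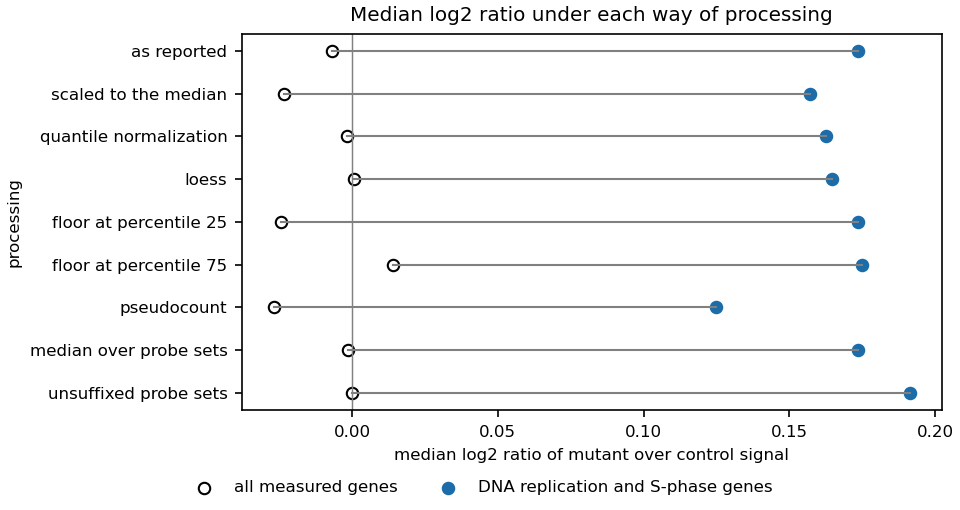
Median log2 ratio of mutant over control for the replication genes (filled) and for all measured genes (open) under each way of processing, with 1 array per genotype. The filled points lie between 0.12 and 0.19 and the open points between -0.03 and 0.01.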

How the data were processed

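Expression was measured on 1 array of control and 1 array of mutant cells. The deposited values are intensities, 1 linear signal per probe set, made by the authors with MAS5 per the submitters' processing notes. The mean without the lowest and highest 2% was 500.003 in each column. The version and background settings of the software were not given in the sources used here. Such scaling does not remove trends with brightness, and ratios of dim probe sets are noisy after mismatch subtraction.

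Of 45101 probe sets, 64 were array controls and 34945 named 1 gene in the platform annotation. Signals were put on the log2 scale and set to each array's median over non-control probe sets where lower. Among the probe sets that name a gene alone, the one brightest by mean log2 signal stood for the gene, which counted as measured where that set was above both floors. Lists named genes by symbol, or by a RefSeq synonym. Alternatives were median scaling, quantile normalization, loess (span 0.3), floors at percentiles 25 and 75, a pseudocount of each array's median, the median over measured probe sets, unsuffixed probe sets, and a fold of 3. The gene values as reported and those after the loess fit were tested on simulated data with known changes, and the other alternatives, counts and motif matches were not. Python 3.11.15, numpy 2.4.6, pandas 2.3.3 and scipy 1.17.1 were used. The genes and lists were chosen with earlier results of these data known. All 34 genes are named; from each other list the 2 highest and 2 lowest measured genes, and from each marker list the 2 brightest in the control. Other genes named, such as those under the floor, serve to account for a list. The number of arrays limits the precision.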

Additional observations from a re-analysis of the deposited data

Results flagged for a closer look

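A probe set that names both Tyms and its pseudogene Tyms-ps was left out of the gene values, because it does not name a single gene. It read 2646 on the control and 3870 on the mutant array, a log2 ratio of 0.55, above the control. The single-gene probe set of Tyms used above was at 0.27, from signals of 259 and 313. Which of both transcripts the shared probe set reads was not tested.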

How the results depend on the processing

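Of 113 summary values under an alternative, 105 stayed on the same side of 0 and close to the value reported (medians within 0.1, counts within 1.5 times). The others were medians of subgroups or compared lists. With each gene at the median of its measured probe sets, the cyclin E and E2F median turned to -0.091, the nucleotide supply median was 0.34, the chromatin median 0.37 and the CDK inhibitor median -0.25. With unsuffixed probe sets, the helicase median was 0.19, the nucleotide supply median 0.34 and the mitotic median 0.29. With the higher floor, the cyclin E and E2F median was 0.73, because only Ccne1 remained. Of 33 genes, 8 changed sign under at least 1 alternative: Mcm5, Mcm6, Cdc45, Prim1, Rfc4, Rpa2, Rrm1 and E2f1. The higher floor kept 26 of the 33 genes. At 3-fold, 0 genes passed, which was certain because none reached 2-fold, and this value is counted among the 105. No paired analysis was possible because each genotype has 1 array, and no array could be left out for the same reason.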
